A study of Mus musculus with 12 samples.

Results

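Macrophage and complement C1q genes were examined in sorted eosinophils as a gauge of macrophage RNA. The set holds 10 genes of the 54115 annotated genes that have a transcript in the deposited tables. It was set by name, with earlier results of these data known: C1qa, C1qb, C1qc, Mrc1, Cd163, Lyve1, Mertk, Cd68, Csf1r and Adgre1. All 10 were measured and all 10 passed the filter on low counts. Eosinophils are granulocytes of the blood that also live in fat. The study sequenced their RNA in 12 libraries from 5 untreated wild-type FVB/NJ males, which were on chow and 20 weeks old. Blood eosinophils came from mice 2668, 2683, 2771 and 2807, gonadal adipose eosinophils from mice 2668, 2683, 2807 and 2846, and subcutaneous adipose eosinophils from mice 2668, 2771, 2807 and 2846. All groups had red cells lysed and were sorted for live cells positive for CD45, CD11b and Siglec-F. An antibody to F4/80, the product of Adgre1, was in the stain but is not part of the labelled definition of the sorted cells. Only the fat was digested, with collagenase type II at 1 mg/mL and 37 C for 45 min, so tissue and digestion cannot be told apart in any comparison of fat with blood. Each library is 1 mouse, and p-values describe the spread between these mice.

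Macrophages are phagocytes that settle in nearly every tissue, and those of fat clear dead adipocytes and store their lipid. C1q, the recognition molecule of the classical complement pathway, is built from A, B and C chains encoded by C1qa, C1qb and C1qc, and tissue macrophages are its main source. Mrc1, Cd163 and Lyve1 encode surface receptors that macrophages use to take up mannose glycans, haemoglobin with haptoglobin, and hyaluronan. Macrophage survival depends on the CSF1 receptor, encoded by Csf1r, and the kinase encoded by Mertk binds apoptotic cells through bridging proteins. Adgre1 is the classical mouse macrophage marker, and eosinophils carry its product too.

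Total reads were 12477671 to 23734940 in 11 libraries and 4379954 in subcutaneous 2846, as libraries are named here by tissue and mouse. That library also stood apart by 28.1% of reads from mitochondrial ribosomal RNA (4.66% to 8.79% elsewhere) and by a summed level of 3344 CPM (reads of a gene scaled to the library total) for 6 fibroblast genes, against 227.9 to 331.5 CPM in the other subcutaneous libraries. Blood 2807 had the highest sum of 8 monocyte genes in blood, 1927 CPM against 114.3 to 381.0 CPM, of which Fn1 was 1576 CPM. A list of 8 eosinophil genes, all with reads in every group, summed to 2935 to 3624 CPM in blood, 962.8 to 2997 CPM in gonadal and 954.1 to 2855 CPM in subcutaneous libraries. The lowest sums were in gonadal 2683 and subcutaneous 2846. Most of each sum was Ccr3 and Alox15, and the members did not move together. Ccr3 and Ear6 were lower in every fat library than in every blood library, and the other genes of the list overlapped. Alox15 stood at 943.5 to 1468 CPM in blood, 336.7 to 1437 in gonadal and 342.0 to 1476 CPM in subcutaneous libraries. Siglecf stood at 231.1 to 324.2, 189.3 to 523.7 and 148.8 to 466.9 CPM.

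Summed over 9 genes, leaving out Adgre1, the level was 331.9 to 639.9 CPM in blood (median 400.3), 824.4 to 2610 CPM in gonadal (median 1659) and 940.8 to 3133 CPM in subcutaneous libraries (median 2039). Every fat library was therefore above every blood library. These reads made up 0.0318% to 0.0707% of a blood library, 0.0826% to 0.281% of a gonadal and 0.0858% to 0.333% of a subcutaneous library. Most of the blood sum was Csf1r alone, at 314.4 to 370.2 CPM there. Csf1r stood at 341.2 to 830.7 CPM in gonadal and 328.3 to 829.5 CPM in subcutaneous libraries. The sum therefore rests on other genes in fat more than in blood. In bulk RNA, a change in the number of cells of a type and a change in the RNA of each cell cannot be told apart. Against blood, 5 of the 10 genes rose in gonadal eosinophils and 6 of 10 in subcutaneous eosinophils, and none fell (edgeR quasi-likelihood test, Benjamini-Hochberg adjusted p under 0.05). Over all 15367 genes tested, 15.4% rose and 11.6% fell in the gonadal comparison, 27% in all. In the subcutaneous comparison 15.4% rose and 11.4% fell, 26.8% in all. The median log2 fold change of the 10 genes was 3.57 in gonadal and 3.90 in subcutaneous eosinophils, beside 0.08 and 0.07 over all genes tested. Since the set was chosen with earlier results of these data known, these counts and medians only describe it. Both comparisons use the same 4 blood libraries. In the plot of each gene by library, C1qa, C1qb, C1qc, Mrc1, Cd163 and Lyve1 do not overlap between blood and fat, Mertk and Cd68 do in part, and Csf1r and Adgre1 stand at 314.4 CPM or more throughout. Per comparison, 7 of the 10 genes in gonadal and 6 in subcutaneous eosinophils did not overlap with blood. Of 26 complement genes beside C1q that were tested, 13 and 14 did not either. The share over all genes is not given, so lack of overlap, here and below, only describes these libraries.

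**Figure D1:**
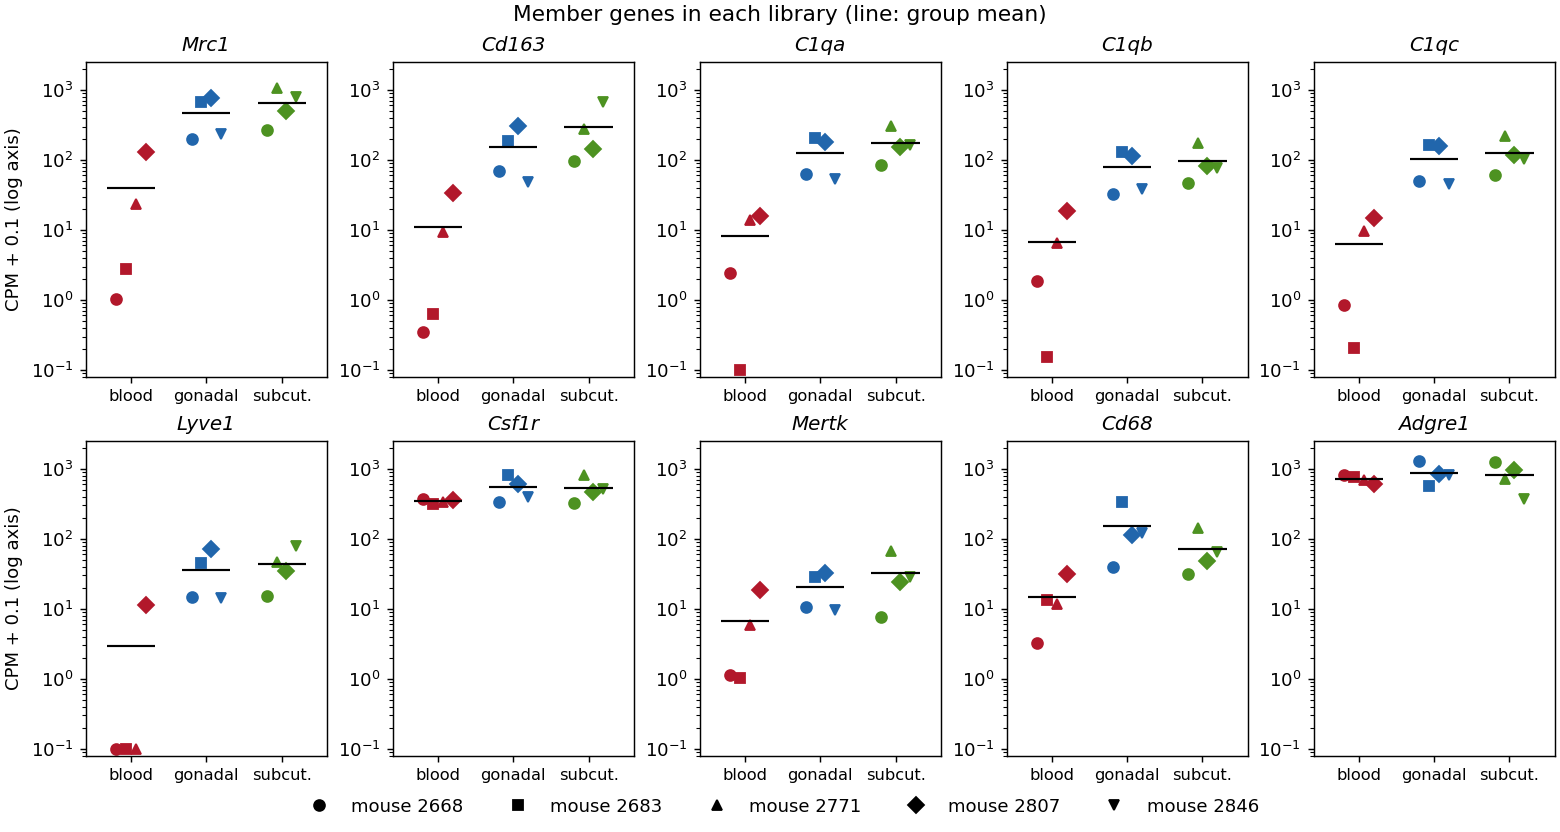
Each panel is 1 gene: CPM plus 0.1 on a log axis, in blood (red), gonadal (blue) and subcutaneous (green) libraries, 1 point per library with a symbol per mouse and a line at the group mean of 4. Blood libraries of mice 2668 and 2683 lie lowest for the C1q genes, Mrc1 and Cd163, and Adgre1 lies between 369.2 and 1293 CPM in all 12 libraries.

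The 3 C1q genes rose in both depots, with log2 fold changes of 3.57 to 4.46. They lie side by side on the minus strand of chromosome 4 (GRCm38, the assembly of mm10): C1qb at 136880129 to 136886187, C1qc at 136889804 to 136893065 and C1qa at 136895917 to 136898803, with gaps of 3616 and 2851 bases. In blood, C1qa stood at 2.33, 0, 13.9 and 15.9 CPM in mice 2668, 2683, 2771 and 2807. It stood at 63.2, 203.5, 182.2 and 52.7 CPM in gonadal libraries of mice 2668, 2683, 2807 and 2846, and at 84.8, 303.4, 153.3 and 165.6 CPM in subcutaneous libraries of mice 2668, 2771, 2807 and 2846. Every fat library was above every blood library, and the blood of mouse 2683, with no read of C1qa, 1 of C1qb and 2 of C1qc, was at or under the limit that 3 reads set, 0.157 CPM. C1qa averaged 8.02 ± 8.02 CPM in blood, 125.4 ± 78.5 in gonadal and 176.8 ± 91.6 CPM in subcutaneous libraries (SD, n = 4). Its log2 fold change over blood was 3.97 (SE 1.07, edgeR adjusted p = 0.0189) in gonadal and 4.46 (SE 1.09, edgeR adjusted p = 0.0127) in subcutaneous eosinophils. Without blood 2668 the gonadal rise of C1qa was not called, nor was it without gonadal 2683.

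The other chains gave the same picture. C1qb stood at 1.74, 0.0524, 6.39 and 18.7 CPM in blood, at 32.7, 131.3, 115.3 and 38.3 CPM in gonadal and at 46.6, 174.4, 82.8 and 77.9 CPM in subcutaneous libraries, in the same order of mice. C1qc stood at 0.744, 0.105, 9.44 and 14.7 CPM in blood, at 50.02, 161.7, 160.6 and 45.7 CPM in gonadal and at 60.8, 221.8, 115.7 and 101.5 CPM in subcutaneous libraries. Neither gene overlapped between blood and fat, and gonadal 2683 and subcutaneous 2771 were the highest of their depots for all 3 chains. The log2 fold change of C1qb was 3.57 (SE 1.05, edgeR adjusted p = 0.0280) in gonadal and 3.84 (SE 1.06, edgeR adjusted p = 0.0222) in subcutaneous eosinophils. That of C1qc was 4.07 (SE 1.07, edgeR adjusted p = 0.0173) and 4.33 (SE 1.08, edgeR adjusted p = 0.0142). C1qc was called in the gonadal comparison with any 1 of the 12 libraries left out, whereas C1qb lost its call there without blood 2771 or blood 2668, or gonadal 2807 or gonadal 2683. In the subcutaneous comparison C1qb was not called without blood 2771 or blood 2668, or without subcutaneous 2771. With no filter on low counts (28788 genes tested) none of the C1q genes was called in gonadal eosinophils, and C1qa and C1qc were called in subcutaneous.

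Within fat the 3 chains kept near-constant proportions. On the TPM scale, which allows for transcript length, C1qa made up 41.4% to 50.8%, C1qb 22.7% to 28.5% and C1qc 26.5% to 31.6% of their sum in the 8 fat libraries. The blood values ranged more widely, 0% to 50.7% for C1qa, on sums of 0.157 to 49.3 CPM. In the same mouse C1qa was higher in fat than in blood in 3 of 3 mice for each depot, by 3.48 and 4.49 in the gonadal fat of mice 2807 and 2668 and by 3.23 to 4.91 in subcutaneous fat as a difference of log2(CPM + 0.5). For mouse 2683 no size is given, since its blood had no read of C1qa.

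Promoters were searched because these genes moved together. RefSeq windows upstream of the RefSeq start (GRCm38.p6, from the C57BL/6J reference and not from FVB/NJ) were used for 6 of the 10 genes. That start is not always the GENCODE start given here for the genes: for C1qc it lies 151 bases downstream, so 151 of the 250 bases lie inside the GENCODE gene, and for Mrc1 it lies 22 bases downstream. AGGAAGT, the ETS core that PU.1, the product of Spi1, can bind, was searched on both strands (ACTTCCT on the other), and so was TGANTCA, an AP-1 site that reads the same on both strands. Capitals mark the matches, and the sequences run 5′ to 3′ on the strand of the gene, 250 bases each: C1qb at chr4:136886201-136886450, minus strand, C1qc at chr4:136892915-136893164, minus strand, Mrc1 at chr2:14229164-14229413, plus strand, and Cd68 at chr11:69666171-69666420, minus strand.
C1qb: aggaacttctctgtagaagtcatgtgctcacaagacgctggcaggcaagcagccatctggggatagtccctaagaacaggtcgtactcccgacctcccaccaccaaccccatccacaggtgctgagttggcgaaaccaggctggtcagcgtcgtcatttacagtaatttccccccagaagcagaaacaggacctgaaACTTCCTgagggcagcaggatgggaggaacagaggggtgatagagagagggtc
C1qc: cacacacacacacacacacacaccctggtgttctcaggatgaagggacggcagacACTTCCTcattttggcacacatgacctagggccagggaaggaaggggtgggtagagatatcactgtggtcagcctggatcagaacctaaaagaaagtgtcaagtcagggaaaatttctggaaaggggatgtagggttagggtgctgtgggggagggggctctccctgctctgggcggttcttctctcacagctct
Mrc1: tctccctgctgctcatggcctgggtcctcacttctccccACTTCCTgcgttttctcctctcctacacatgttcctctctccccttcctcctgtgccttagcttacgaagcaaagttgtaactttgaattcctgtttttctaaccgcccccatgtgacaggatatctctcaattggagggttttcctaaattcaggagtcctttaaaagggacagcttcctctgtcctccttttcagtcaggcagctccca
Cd68: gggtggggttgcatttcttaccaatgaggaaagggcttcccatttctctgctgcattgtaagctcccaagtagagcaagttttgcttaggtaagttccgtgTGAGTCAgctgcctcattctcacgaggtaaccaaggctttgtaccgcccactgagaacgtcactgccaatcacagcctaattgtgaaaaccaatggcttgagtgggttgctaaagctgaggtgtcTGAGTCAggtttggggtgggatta
C1qb, C1qc and Mrc1 each hold 1 AGGAAGT match, 53, 195 and 211 bases before the RefSeq start, which is 66, 44 and 189 bases before the GENCODE start, so 3 of the 6 windows have it, beside 7.69% of 32851 RefSeq windows of that length. Cd68 holds 2 TGANTCA matches and is the only 1 of the 6 with any, beside 6.75% of all windows. The windows of Cd163 and Mertk hold neither. A match of letters is a description of these windows and shows no binding.

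Among the uptake receptors, Mrc1 and Cd163 were low in blood and high in fat. Mrc1, the mannose receptor CD206 (chromosome 2, 14229392 to 14332057, plus strand), stood at 0.943, 2.67, 23.2 and 130.9 CPM in blood. It stood at 202.0, 683.4, 757.9 and 232.9 CPM in gonadal and at 270.5, 1065, 507.9 and 784.3 CPM in subcutaneous libraries. No fat library was as low as the highest blood library, that of mouse 2807, which was itself far above the other 3. Group means were 39.4 ± 61.8 CPM in blood, 469.0 ± 292 in gonadal and 656.9 ± 344 CPM in subcutaneous libraries (SD, n = 4). Mrc1 rose in subcutaneous eosinophils, with a log2 fold change of 4.06 (SE 1.26, edgeR adjusted p = 0.0349). In gonadal eosinophils it was 3.58 (SE 1.23) and was not called (edgeR adjusted p = 0.0512). The gonadal value was called in 6 of 22 alternative fits. A fit blocked by mouse called it (edgeR adjusted p = 0.0419). Among fits without 1 library, only that without blood 2807, the highest blood library, called it (edgeR adjusted p = 0.00525). The subcutaneous call was lost without blood 2771 or blood 2683, gonadal 2683 or gonadal 2668, or subcutaneous 2846 or subcutaneous 2771.

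Cd163, the scavenger receptor for haemoglobin bound to haptoglobin (chromosome 6, 124304656 to 124330527, plus strand), rose in both depots. It stood at 0.248, 0.524, 9.39 and 34.1 CPM in blood, at 70.2, 184.2, 308.2 and 47.6 CPM in gonadal and at 95.9, 280.2, 143.2 and 678.9 CPM in subcutaneous libraries. The groups did not overlap, and subcutaneous 2846 was the highest of all. The log2 fold change was 3.79 (SE 1.28, edgeR adjusted p = 0.0480) in gonadal and 4.76 (SE 1.34, edgeR adjusted p = 0.0236) in subcutaneous eosinophils. The gonadal call was not stable. Blocking by mouse removed it (edgeR adjusted p = 0.0584). Of the 12 fits without 1 library it remained only in those without blood 2807 or subcutaneous 2846. The subcutaneous call was lost without blood 2771 or subcutaneous 2846. A retained-intron transcript took 24.3% of Cd163 reads in blood, 12.9% in gonadal and 9.98% in subcutaneous libraries, and the rest was in coding transcripts.

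Lyve1, a hyaluronan receptor of lymphatic endothelium and of perivascular macrophages (chromosome 7, 110850607 to 110863239, minus strand), had no read in 3 of 4 blood libraries. It stood at 0, 0, 0 and 11.3 CPM in blood, at 14.8, 45.0, 70.9 and 14.3 CPM in gonadal and at 15.3, 47.1, 34.7 and 77.9 CPM in subcutaneous libraries. A count of 0 allows up to 0.141 to 0.157 CPM in these blood libraries, for counting error only. Blood 2807 held 191 reads, and every fat library was above it. The log2 fold changes were 3.70 (SE 1.51, edgeR adjusted p = 0.0916) in gonadal and 3.96 (SE 1.53, edgeR adjusted p = 0.0760) in subcutaneous eosinophils, and neither was called. Each change was called in only 2 of 22 alternative fits, neither of which held blood 2807. Against the other 3 blood libraries Lyve1 was at least 230.7-fold higher in gonadal and at least 278.3-fold higher in subcutaneous libraries. These bounds come from the mean CPM of each depot and the highest of those 3 limits, each of 3 reads in 1 library. Lymphatic endothelial markers other than Lyve1 (5 genes, of which 4 had reads in blood and 5 in each depot, with Ccl21a at 0 in blood) summed to 0 to 3.56 CPM in blood, 0.360 to 2.31 in gonadal and 0.158 to 31.1 CPM in subcutaneous libraries. The 31.1 CPM belonged to the library of mouse 2846, the next highest subcutaneous sum was 1.301 CPM, and Lyve1 in those other 3 libraries was 15.3 to 47.1 CPM.

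Mertk, the receptor kinase for apoptotic cells (chromosome 2, 128698956 to 128802894, plus strand), did not pass the test in either depot. It stood at 1.04, 0.943, 5.82 and 18.6 CPM in blood, at 10.5, 28.7, 32.5 and 9.43 CPM in gonadal and at 7.65, 68.0, 24.4 and 28.5 CPM in subcutaneous libraries. Blood 2807 overlapped with both depots. Its log2 fold changes were 1.62 (SE 0.93, edgeR adjusted p = 0.222) and 2.29 (SE 0.95, edgeR adjusted p = 0.0963). Without that blood library, the highest in blood, the gonadal value was 2.92 (edgeR adjusted p = 0.0334) and both were called. Of 22 alternative fits, 2 called the gonadal and 3 the subcutaneous value.

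Cd68, a glycoprotein of late endosomes and lysosomes in phagocytes (chromosome 11, 69664213 to 69666153, minus strand), rose in both depots. It stood at 3.18, 13.2, 11.6 and 31.2 CPM in blood, at 39.7, 341.1, 115.3 and 122.2 CPM in gonadal and at 31.1, 143.7, 47.7 and 65.9 CPM in subcutaneous libraries. Gonadal libraries did not overlap with blood, while subcutaneous 2668 lay just under the highest blood library. The log2 fold change was 3.39 (SE 0.80, edgeR adjusted p = 0.0107) in gonadal and 2.29 (SE 0.77, edgeR adjusted p = 0.0478) in subcutaneous eosinophils. The gonadal rise was called in all 22 alternative fits run for it, the subcutaneous one in 11 of 22. Among fits without 1 library, the subcutaneous call held in those without blood 2807, gonadal 2683 or gonadal 2668, or subcutaneous 2668, and was lost in the other 8.

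Csf1r and Adgre1 were abundant in blood already. Csf1r, the receptor for CSF1 and IL-34 (chromosome 18, 61100598 to 61132149, plus strand), stood at 370.2, 314.4, 340.7 and 364.5 CPM in blood, at 341.2, 830.7, 613.0 and 399.1 CPM in gonadal and at 328.3, 829.5, 464.0 and 523.2 CPM in subcutaneous libraries. The fat libraries of mouse 2668 were within the blood range and the other fat libraries above it. The log2 fold change was 0.65 (95% interval -0.00348 to 1.31, edgeR adjusted p = 0.128) in gonadal and 0.63 (95% interval -0.03 to 1.28, edgeR adjusted p = 0.142) in subcutaneous eosinophils, and it was called in none of 22 alternative fits of either comparison. Csf1r overlaps Hmgxb3 on the other strand, which had 5490 reads over all libraries.

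Adgre1, which encodes F4/80 (chromosome 17, 57358691 to 57483527, plus strand), was at a similar level in the 3 groups. It stood at 809.7, 765.6, 700.4 and 617.4 CPM in blood, at 1293, 568.7, 832.1 and 807.8 CPM in gonadal and at 1235, 714.5, 964.2 and 369.2 CPM in subcutaneous libraries. The groups overlapped, the fat libraries of mouse 2668 were highest, and subcutaneous 2846 and gonadal 2683 were lowest. The log2 fold change was 0.28 (95% interval -0.43 to 0.98, edgeR adjusted p = 0.574) in gonadal and 0.18 (95% interval -0.52 to 0.89, edgeR adjusted p = 0.711) in subcutaneous eosinophils. Both intervals end below a log2 fold change of 1, and they do not show equal levels.

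**Figure D2:**
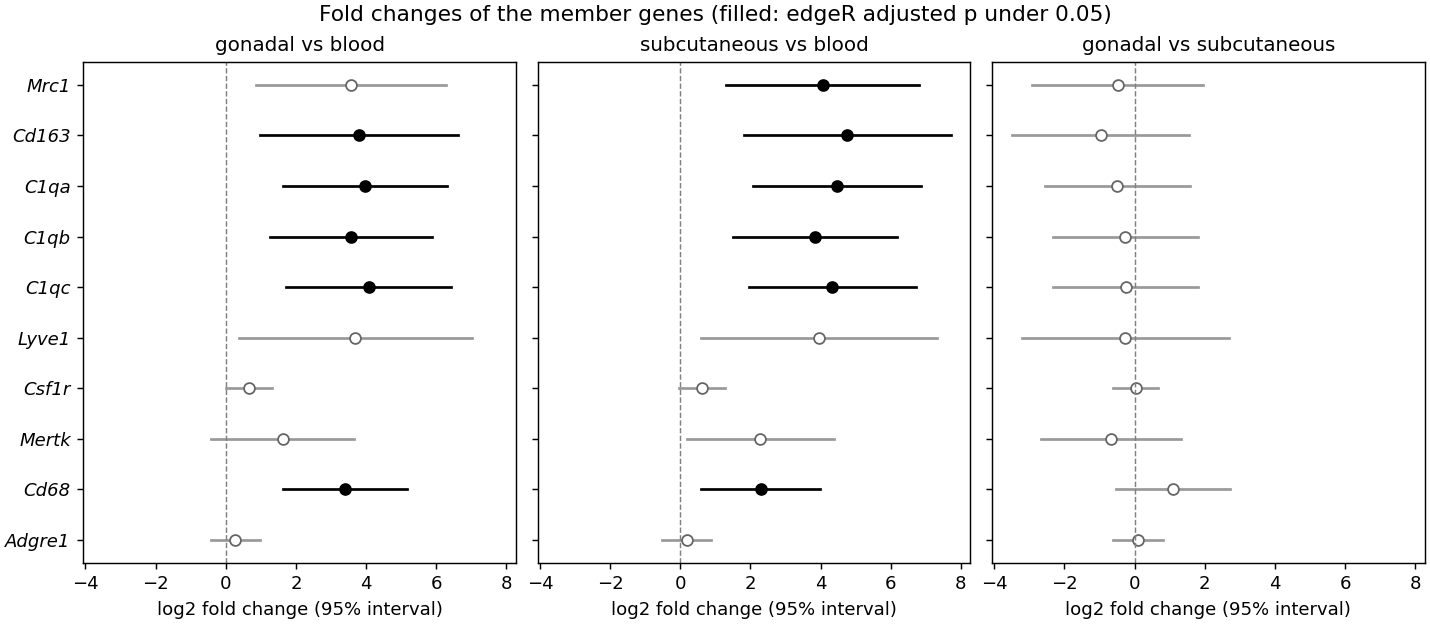
Points give the log2 fold change of each gene from the edgeR fit and lines its 95% interval, for gonadal against blood, subcutaneous against blood and gonadal against subcutaneous. Filled points passed an adjusted p of 0.05: 5, 6 and 0 genes. Adgre1 is at 0.28, 0.18 and 0.09, and Csf1r at 0.65, 0.63 and 0.03.

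Ordered by median TPM, Adgre1 and Csf1r led in all 3 groups. In blood they stood at 162.0 and 82.3 TPM, and the next gene, C1qa, at 3.13 TPM. In gonadal libraries the medians were 180.6 TPM for Adgre1, 107.1 for Csf1r, 51.7 for C1qa, 37.1 for Cd68, 34.2 for C1qc, 29.8 for C1qb, 27.4 for Mrc1, 10.4 for Cd163, 4.86 for Lyve1 and 1.56 TPM for Mertk. In subcutaneous libraries they were 178.6 TPM for Adgre1, 99.0 for Csf1r, 62.5 for C1qa, 40.3 for Mrc1, 37.0 for C1qc, 30.4 for C1qb, 17.6 for Cd68, 17.3 for Cd163, 9.31 for Lyve1 and 2.28 TPM for Mertk. Neighbours in these orders overlapped over the 4 libraries of each group, except Csf1r with C1qa in blood and Adgre1 with Csf1r in blood.

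Between the depots none of the 10 genes passed the test, by edgeR or by DESeq2, and none had an unadjusted p under 0.05. Of all genes tested, 0.00651% were called, which is the single gene Lef1. The median log2 difference, gonadal minus subcutaneous, was -0.26 for the 10 genes and -0.01 over all genes tested. The values were -0.50 for C1qa (95% interval -2.56 to 1.57), -0.49 for Mrc1 (-2.93 to 1.96), -0.97 for Cd163 (-3.50 to 1.56), 0.03 for Csf1r (-0.63 to 0.68) and 0.09 for Adgre1 (-0.61 to 0.80). These intervals allow differences of several-fold in either direction for the C1q and uptake genes. For Cd68 the difference was 1.10 (95% interval -0.53 to 2.72, edgeR adjusted p = 0.750). In the 3 mice with both depots, Cd68 was higher in gonadal fat in 3 of 3, by 0.35 to 1.27 as a difference of log2(CPM + 0.5), while C1qa was higher in 1 of 3.

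Relative to the C1q genes, Mrc1 was the most even gene in fat. The ratio of its TPM to the summed TPM of C1qa, C1qb and C1qc was 0.236 to 0.298 in gonadal libraries and 0.247 to 0.270 in 3 subcutaneous libraries, with 0.414 in the library of mouse 2846. Cd163 had ratios of 0.0803 to 0.156 in gonadal and 0.0907 to 0.115 in 3 subcutaneous libraries, and again the library of mouse 2846 stood apart at 0.464. Cd68 had 0.221 to 0.787 in gonadal and 0.118 to 0.180 in subcutaneous libraries, without overlap. This ratio was not tested. Csf1r had 0.742 to 1.65 in gonadal and 0.678 to 0.920 in subcutaneous libraries, against 4.21 to 1273 in blood, where the C1q sum was as low as 0.0327 TPM. Adgre1 had 0.716 to 5.36 in gonadal, 0.466 to 3.60 in subcutaneous and 7.48 to 3594 in blood libraries.

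**Figure D3:**
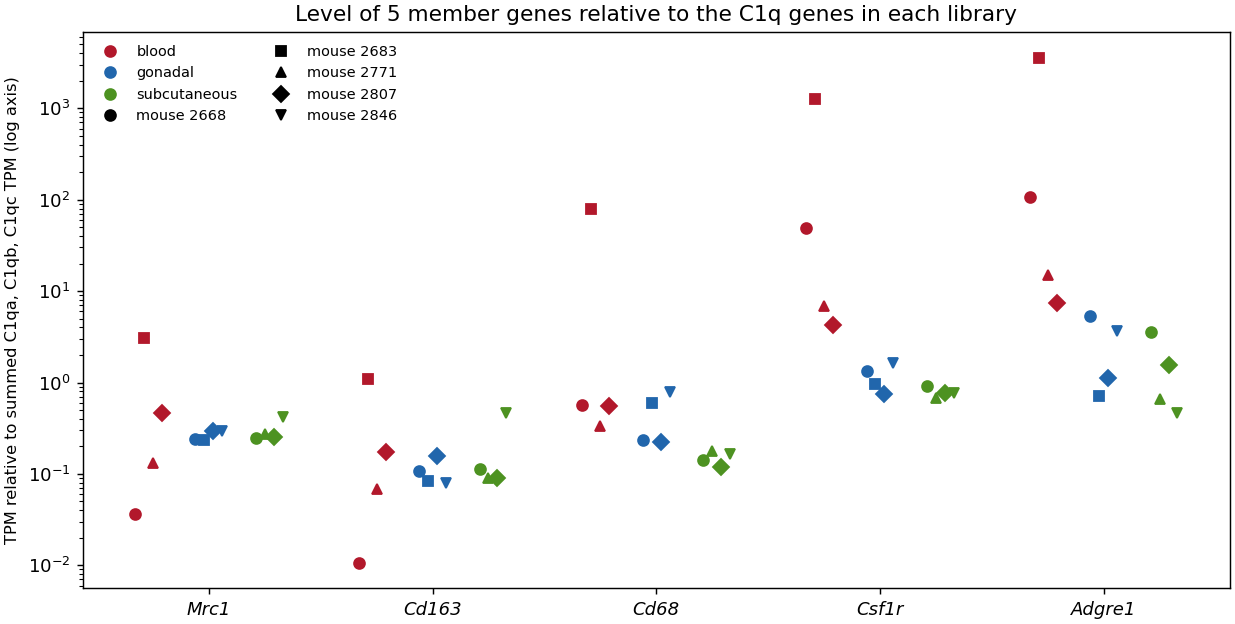
The level of 5 genes in TPM divided by the summed TPM of C1qa, C1qb and C1qc, on a log axis, 1 point per library with colours for tissue and symbols for mice. In fat, Mrc1 spans 0.236 to 0.414 and Adgre1 spans 0.466 to 5.36, and in blood all 5 ratios spread more widely, with a C1q sum of 0.0327 TPM in 1 library.

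Across the 12 libraries, the 8 genes without Csf1r and Adgre1 varied together. Pearson's r of log2 CPM was 0.743 to 0.993 over their 28 pairs, and 0.354 to 0.979 on deviations from the group means, which leave out the difference between tissues. Csf1r with those 8 had r of 0.613 to 0.760, or 0.357 to 0.676 on deviations. Adgre1 with the other 9 genes had r of -0.420 to -0.0484, or -0.615 to -0.295 on deviations. These are descriptions over 12 libraries that share mice, depth and sort, and they carry no test. Adgre1, a macrophage gene by its label, did not vary with the others in these libraries.

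Of all protein-coding genes outside the set, Siglecf, the gene of the sorted antigen, was the most like Adgre1, with r = 0.978 over the 12 libraries of log2 CPM. On deviations from group means it was 0.978, and 0.978 with the 2 libraries farthest from the median left out, but there Siglecf ranked only 10 of all these genes and Atp8b5 ranked 2, with r = 0.983. Siglecf averaged 273.0 CPM in blood, 340.6 in gonadal and 307.0 CPM in subcutaneous libraries. The next genes were Atp8b5, Lmtk2, Pstpip2 and Adam8, with r of 0.961 to 0.974. For the mean of the C1q genes the most alike were Igf1 (r = 0.985), Folr2, Ccl24, Gprc5c, Pdgfc, Cxcl16, Itga9 and Chp2 (r = 0.958), with r of 0.879 to 0.955 on deviations. Igf1, a growth factor gene, averaged 3.34 CPM in blood, 43.1 in gonadal and 44.5 CPM in subcutaneous libraries, and Ccl24, which encodes a ligand of the eosinophil receptor CCR3, averaged 0.969, 25.5 and 40.4 CPM. Only 3 of these 8 genes, and 1 of the 5 most like Adgre1, were again on the list when it was drawn from deviations.

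**Figure D4:**
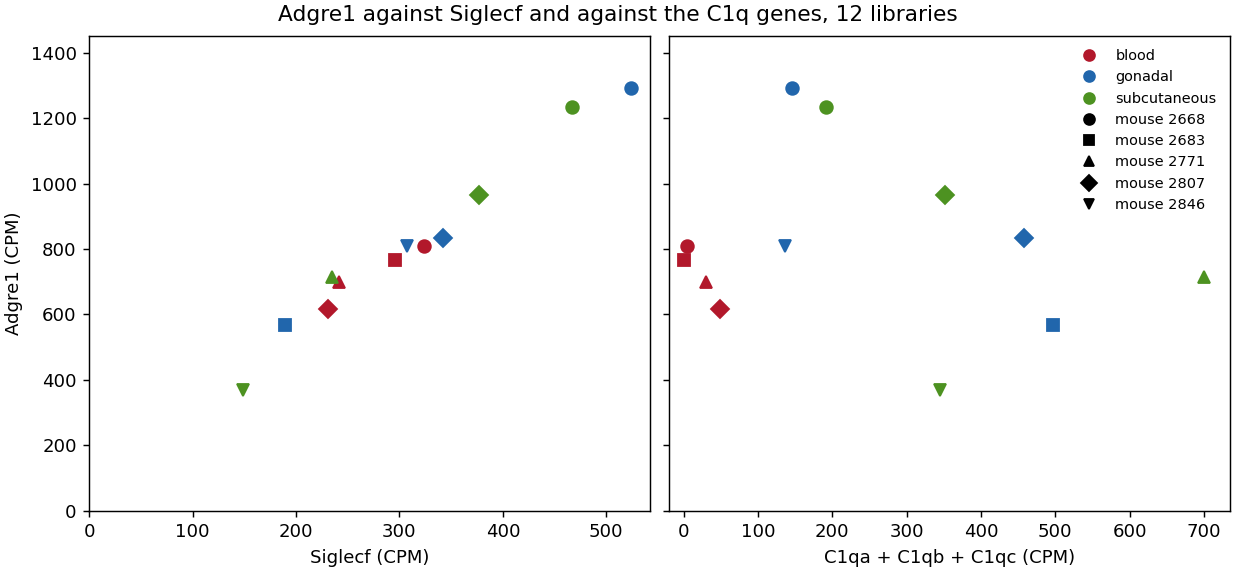
Adgre1 in CPM against Siglecf in CPM (left) and against the summed CPM of C1qa, C1qb and C1qc (right), 1 point per library, with colours for tissue and symbols for mice. On the left the points lie along a line from 369.2 to 1293 CPM of Adgre1, and on the right libraries with more C1q reads do not have more Adgre1 reads.

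Markers of other cells moved with the 8 genes in part. On deviations from group means, r with Siglecf was -0.715 to -0.356. With 2 other eosinophil genes, Ccr3 and Il5ra, r was -0.427 to -0.124 and -0.540 to -0.179. Ccr3 itself averaged 1526 CPM in blood, 724.8 in gonadal and 704.3 CPM in subcutaneous libraries. With the monocyte gene Ccr2 r was 0.303 to 0.866, with Fn1, fibronectin, 0.373 to 0.820, and with the fibroblast gene Pdgfra -0.236 to 0.0783. The monocyte list (8 of 8 genes with reads in each group) summed to 114.3 to 1927 CPM in blood, 2018 to 7307 CPM in gonadal and 1477 to 1681 CPM in subcutaneous libraries, but its members did not move together. Nr4a1, which is also an early response gene of many cells, made up much of the sum in fat, with 10.2 to 29.5 CPM in blood, 901.5 to 1239 in gonadal and 695.6 to 1517 CPM in subcutaneous libraries. Fn1 stood at 52.8 to 1576, 626.1 to 6195 and 53.3 to 654.6 CPM, and its 6195 CPM were in gonadal 2683, where 3 C1q genes and Cd68 were highest of their group. Treml4 was lower in every fat library, with 17.5 to 21.8 CPM in blood, 3.05 to 4.28 in gonadal and 2.70 to 9.66 CPM in subcutaneous libraries. Ly6c2 stood at 1.97 to 3.04, 0.0609 to 1.02 and 0.434 to 11.98 CPM, and Ccr2 at 18.0 to 188.5, 38.0 to 185.0 and 34.9 to 54.5 CPM. The fibroblast and progenitor list (6 of 6 genes with reads in each group) summed to 118.8 to 204.3 CPM in blood, 143.1 to 425.2 in gonadal and 227.9 to 3344 CPM in subcutaneous libraries. Most of the blood sum was Pi16, at 110.4 to 203.8 CPM there, and the other 5 genes were higher in every fat library than in every blood library. Col3a1 stood at 0.0524 to 5.04 CPM in blood, 35.4 to 224.6 in gonadal and 75.9 to 1800 CPM in subcutaneous libraries. Dcn had 1 read in each of 2 blood libraries and stood at 14.1 to 98.4 CPM in gonadal and 7.87 to 218.6 CPM in subcutaneous libraries. Pdgfra stood at 0 to 0.397, 5.29 to 17.9 and 3.90 to 88.6 CPM. The sum of the neutrophil list (6 genes) went the other way. It was 2327 to 3604 CPM in blood, 185.9 to 407.7 in gonadal and 168.1 to 677.2 CPM in subcutaneous libraries. Most of it was Retnlg, at 2206 to 3298 CPM in blood, 183.0 to 397.7 in gonadal and 161.0 to 667.2 CPM in subcutaneous libraries. S100a8 and S100a9 were also lower in every fat library. Ltf was at most 3.08 CPM in any library and overlapped between blood and fat. Ly6g and Camp were at 0 in all fat libraries, but also at most 2.97 and 0.517 CPM in blood. The dendritic cell list (6 of 6 genes) summed to 1.54 to 37.9 CPM in blood, 5.42 to 32.4 in gonadal and 10.6 to 41.4 CPM in subcutaneous libraries. The B cell list (4 of 4 genes) summed to 11.8 to 175.5, 1.43 to 28.5 and 6.89 to 47.0 CPM, and the T cell list (4 of 4 genes) to 7.19 to 16.3, 1.43 to 4.90 and 18.0 to 169.1 CPM. The adipocyte list (4 genes) stayed at or under 6.52 CPM except for 21.3 CPM in subcutaneous 2846, with Adipoq and Plin1 at 0 in blood. The part of these cells in the values of the 10 genes was not tested.

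Other macrophage markers (24 genes, all tested) rose in 14 of 24 cases in gonadal and 17 of 24 in subcutaneous eosinophils and fell in none, with median log2 fold changes of 3.24 and 3.13. Beside them, 15.4% of all genes tested rose in each comparison. Apoe, which carries lipid, averaged 130.3 ± 124 CPM in blood, 1112 ± 794 in gonadal and 1373 ± 829 CPM in subcutaneous libraries (edgeR adjusted p = 0.0173 and 0.0123). Selenop, a selenium carrier, averaged 43.0 ± 18.9, 928.3 ± 644 and 795.8 ± 447 CPM (edgeR adjusted p = 0.000433 and 0.000585). F13a1, the A chain of clotting factor XIII, averaged 24.7 ± 15.0, 257.8 ± 187 and 388.0 ± 230 CPM (edgeR adjusted p = 0.00888 and 0.00469). Cbr2 and the lectin gene Cd209f had at most 11 reads in any blood library and averaged 26.4 and 24.2 CPM in gonadal and 56.1 and 69.2 CPM in subcutaneous libraries, called in both.

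Of 28 complement genes beside C1q, 26 were tested, and 13 rose and 2 fell in gonadal, 12 rose and 2 fell in subcutaneous eosinophils, with median log2 fold changes of 1.09 and 1.26. Shares over all genes tested were 15.4% up and 11.6% down in gonadal, 15.4% up and 11.4% down in subcutaneous eosinophils. Calr, calreticulin, which binds the C1q tails, averaged 108.8 ± 48.4 CPM in blood, 330.4 ± 144 in gonadal and 224.6 ± 36.1 CPM in subcutaneous libraries (edgeR adjusted p = 0.00461 and 0.0342). Cd93, once described as a C1q receptor, averaged 6.16 ± 4.07, 87.9 ± 61.3 and 47.2 ± 33.1 CPM (edgeR adjusted p = 0.00497 and 0.0158). Serping1, the C1 inhibitor, had at most 9 reads in a blood library and averaged 19.4 ± 11.8 and 26.5 ± 34.1 CPM in the depots. C7, of the membrane attack complex, had 1 read in blood in all, and its subcutaneous mean of 38.8 ± 54.8 CPM was led by 119.5 CPM in the library of mouse 2846. The 2 that fell were Itgam, the CD11b chain of complement receptor 3 and an antigen of the sort, and the regulator Cr1l. Itgam averaged 1905 ± 112 CPM in blood, 985.7 ± 217 in gonadal and 919.6 ± 316 CPM in subcutaneous libraries (edgeR adjusted p = 0.0152 and 0.00972), and its partner chain Itgb2 was not called.

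In the list of the CSF1 axis and macrophage transcription factors, 12 of 13 genes were tested, and 4 rose and 2 fell in gonadal, 5 rose and 2 fell in subcutaneous eosinophils. The median log2 fold changes were 1.26 and 1.32. Among all genes tested, 15.4% rose in each comparison, and 11.6% and 11.4% fell. Cebpb averaged 32.5 ± 10.01 CPM in blood, 276.9 ± 54.3 in gonadal and 338.7 ± 107 CPM in subcutaneous libraries (edgeR adjusted p = 1.36e-05 and 7.36e-06). Spi1, which encodes PU.1, fell from 387.4 ± 24.7 CPM in blood to 211.3 ± 6.91 in gonadal and 173.9 ± 65.0 CPM in subcutaneous libraries (edgeR adjusted p = 0.0154 and 0.00391). Csf3r, the G-CSF receptor of neutrophils and their precursors, fell from 325.1 ± 96.5 to 11.1 ± 3.39 and 18.5 ± 7.76 CPM (edgeR adjusted p = 9.17e-06 and 1.90e-05), beside the fall of the neutrophil sum, most of which was Retnlg. Csf1, the ligand, was not called, with 334.9 ± 51.6, 206.0 ± 61.0 and 294.6 ± 161 CPM. Csf2rb, the shared chain of the GM-CSF, IL-3 and IL-5 receptors, was called higher in both depots, but it has a near-identical copy in the mouse, and reads may be divided between them.

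Of 20 genes for the uptake of dead cells, 19 were tested, and 7 rose and 1 fell in gonadal, 4 rose and none fell in subcutaneous eosinophils. The median log2 fold changes were 0.96 and 1.31. Since 15.4% of all genes tested rose in each comparison, the 4 subcutaneous rises are near the general share. Gas6, a bridging ligand of the kinase encoded by Mertk, had 15, 1, 0 and 0 reads in the blood of mice 2807, 2771, 2683 and 2668, and averaged 63.3 ± 44.9 CPM in gonadal and 83.7 ± 39.1 CPM in subcutaneous libraries. Stab1, a scavenger receptor, averaged 5.09 ± 5.98 CPM in blood, 291.6 ± 209 in gonadal and 362.4 ± 263 CPM in subcutaneous libraries (edgeR adjusted p = 0.00273 and 0.00229). Lrp1 averaged 164.6 ± 140, 1018 ± 760 and 409.5 ± 311 CPM and was called in gonadal eosinophils (edgeR adjusted p = 0.0358), not in subcutaneous (edgeR adjusted p = 0.241). Itgb3 fell in gonadal eosinophils, from 453.7 ± 26.3 to 198.7 ± 77.2 CPM (edgeR adjusted p = 0.0169).

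Of 12 lysosomal genes near Cd68 in function, 11 were tested, and 4 rose and none fell in each depot, the same 4 genes, Lamp2, Grn, Ctsb and Ctsl. The median log2 fold changes were 0.86 and 0.38. For this list and the next, the shares over all genes tested are again 15.4% up in each comparison, and 11.6% and 11.4% down. Ctsb, cathepsin B, averaged 92.0 ± 50.1 CPM in blood, 891.2 ± 754 in gonadal and 584.4 ± 349 CPM in subcutaneous libraries (edgeR adjusted p = 0.00476 and 0.0120). The abundant Laptm5 and Ctsd were not called in either. Of 9 genes for other adhesion receptors of the Adgre1 class and for sort antigens, none rose and 3 fell in gonadal eosinophils, and 2 rose (Adgrg1 and Adgrl1) and the same 3 fell in subcutaneous: Adgre5, Ptprc and Itgam. Adgre5, a relative of Adgre1, fell from 1480 ± 138 CPM in blood to 793.6 ± 198 in gonadal and 653.3 ± 166 CPM in subcutaneous libraries (edgeR adjusted p = 0.0125 and 0.00311). Ptprc, which encodes the sort antigen CD45, fell from 3968 ± 338 to 2120 ± 523 and 2202 ± 591 CPM (edgeR adjusted p = 0.0171 and 0.0230). Between the depots no gene of any of the 6 lists was called, beside 0.00651% of all genes tested.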

How the data were processed

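The 12 libraries were made from sorted cells with a SMARTer stranded kit for very small amounts of total RNA, per the labels' protocols. Reads were handled with Salmon 1.6.0 and Trim Galore 0.6.4, and DESeq2 1.30.1 and the mm10 build are also named, per the submitters' processing notes. The deposited tables give estimated counts, TPM and effective lengths per transcript, per the file headers. The strand setting and the annotation release are not given in the sources used here. Of 140992 transcripts, 139791 matched GENCODE M21, and the 1201 others, with 0.351% to 0.538% of each library's reads, were left out. The authors' expected counts were summed by gene and rounded, and the deposited TPM were summed by gene for levels between genes. The deposited effective length entered only as an offset in 1 alternative.

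The members and lists were chosen with earlier results of these data known. Tests used edgeR 4.0.16 in R 4.3.3 (quasi-likelihood, robust, TMM, filterByExpr by group, 1 fit of all 12 libraries by group). P-values are two-sided and adjusted by Benjamini-Hochberg over 15367 genes, threshold 0.05. CPM use TMM-scaled totals, and each ± is an SD over 4 libraries. The common biological coefficient of variation was 0.545. On simulated data with 14867 genes for gonadal against blood, log2 changes of 3 and -3 were recovered in 65.3% and 69.6% of genes, those of 1 and -1 in 16.3% and 4.44%, and 0.0136% of unchanged genes were called. The 95% intervals of log2 fold changes come from the same fit and carry the spread between mice. Floors of 3 counts cover counting error only, since PCR reads without molecular identifiers are not independent molecules.

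Named beside the 10 genes are, from each list, the 3 most abundant genes and up to 2 called genes in each direction with the largest change and at least 20 CPM, the 8 coding genes most like the C1q genes and the 5 most like Adgre1 (log2 CPM, prior count 2), and cell type markers. A gene that this rule takes is not reported here. Lamp2, Grn, Lef1, Adgrg1 and Adgrl1 were named after their values were seen. Mouse numbers mark the animal, so same-numbered libraries are paired: deviations from group means correlated by -0.111 to 0.358 over 9 same-mouse pairs (mean 0.0842), against a mean of -0.0188 over 39 pairs of different mice. The fit with mouse as a block is an alternative, beside DESeq2 1.42.0, other scalings and filters, and fits without 1 library. No batch is named in the labels.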

Additional observations from a re-analysis of the deposited data

Results flagged for a closer look

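In 36 groups of 4 libraries (10 genes and 2 summed levels in 3 tissues), 1 sample stood far from the others in 2. Chance alone flags about 1 in 20 groups, and 2 of 36 is near that share. Many of the genes vary together, so the groups are not independent. Both flags concern blood 2807, the blood library of that mouse. Mrc1 stood there at 130.9 CPM, against 0.943 to 23.2 CPM in the other 3 blood libraries. Its gap was 0.829 of the whole range, where the critical value is 0.829. Lyve1 stood there at 11.3 CPM, against 0 in the other 3. The same library had the highest blood level of C1qa, C1qb, C1qc, Cd163, Mertk and Cd68 and the highest sums of monocyte and B cell genes in blood, 1927 and 175.5 CPM. It also had the highest blood sums of dendritic cell, T cell and lymphatic endothelial genes, 37.9, 16.3 and 3.56 CPM. Its sums of eosinophil and of fibroblast and progenitor genes were the lowest in blood, 2935 and 118.8 CPM. Most of the fibroblast and progenitor sum in blood was Pi16, so it does not describe the other genes of that list. In the eosinophil list Alox15, at 943.5 CPM, Siglecf and Ear6 were lowest in this library. The other eosinophil genes were not, with Ccr3 at 1598 CPM. The part of these cells was not tested.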

How the results depend on the processing

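Each of the 10 genes was recomputed under 22 alternatives per comparison. In gonadal against blood, 5 genes were called, and 4 to 6 under other scalings, DESeq2, the length offset, coding transcripts alone and without mitochondrial ribosomal RNA. The count was 1 with no filter (Cd68, with 28788 genes tested), 3 with only the 2 groups in the fit (C1qa, C1qc and Cd68), 8 without subcutaneous 2846 and blood 2807 together, and 2 to 8 without 1 library. In subcutaneous against blood, 6 were called, 2 with no filter and 2 with only the 2 groups in the fit (C1qa and C1qc in both), and 2 to 8 without 1 library. Without blood 2807 the count was 8 in both. With mouse as a replicate block 5 and 6 genes were called: in gonadal eosinophils Mrc1 gained and Cd163 lost its call, and it changed no other call of the 10 genes. Between depots 0 genes of the set were called in any of the 22.

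Over all genes, 4152 were called in gonadal against blood (2753 to 5075 without 1 library) and 4121 in subcutaneous against blood (2737 to 4256 without 1 library, 2689 with coding transcripts alone). Between depots 1 gene was called, 152 by DESeq2, 0 with the replicate block, with only the 2 groups, with coding transcripts alone and without subcutaneous 2846 and blood 2807 together, and 0 to 7 without 1 library.

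The direction turned only for values that were never called. Adgre1 in subcutaneous against blood was -0.0118 with the length offset, and -0.0742 to 0.447 without 1 library. Between depots Csf1r was -0.0121 with DESeq2 size factors, -0.0121 with DESeq2, -0.0891 with coding transcripts, and -0.242 to 0.307 without 1 library. C1qc was 0.0778 with the replicate block and -0.544 to 0.164 without 1 library. Lyve1 and Adgre1 were 0.149 and -0.155 without subcutaneous 2846 and blood 2807 together. Without 1 library, C1qb was -0.616 to 0.191, Mertk -1.002 to 0.0151, Lyve1 -0.810 to 0.149 and Adgre1 -0.155 to 0.367. The cause was not tested. Unscaled library totals moved the median of all genes between depots from -0.01 to 0.13. The shallowest library, with 4379954 reads, limits the precision of low values.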
